A study of Rattus norvegicus with 6 samples.

Results

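The microRNAs rno-miR-146a-5p, rno-miR-146b-5p and rno-miR-155-5p were followed in the arterial and venous plasma of 3 male Sprague-Dawley rats aged 10 weeks. They were chosen by name as microRNAs linked to inflammation, and they are 3 of the 758 rat microRNAs on the array. All 3 names were on the array, each with 2 probes of 8 spots. In each rat the abdominal aorta gave the arterial and the postcava the venous plasma, no treatment was given beforehand, and all plasma was cleared by centrifugation and a filter, so that all samples share this preparation and the rats stand for healthy males of 1 strain and age. Each of the 6 plasma samples was hybridized to 1 single-colour Agilent array (3 arterial, 3 venous), and the study asked whether the microRNA profiles of both kinds of plasma are the same.

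miR-146a is switched on by NF-kappaB when Toll-like receptors or interleukin-1 receptors signal, and it represses the adaptors Traf6 and Irak1, which closes a negative feedback loop. miR-146b comes from a separate gene but carries the same seed, the bases that pair with target transcripts. miR-155 is cut from the non-coding transcript Mir155hg in activated lymphocytes and macrophages and represses brakes on immune signalling such as Socs1. In blood these microRNAs are known from leukocytes, and microRNAs outside cells travel in vesicles or bound to protein.

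The mature sequences are shown because miR-146a and miR-146b are so alike that their probes must tell them apart by a few bases. They come from RefSeq on the GRCr8 assembly, 5′ to 3′, with the seed (bases 2 to 8) in capitals.
rno-miR-146a-5p: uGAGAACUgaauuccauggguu
rno-miR-146b-5p: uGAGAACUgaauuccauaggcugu
rno-miR-155-5p: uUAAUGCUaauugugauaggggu
The pair rno-miR-146a-5p and rno-miR-146b-5p shared the seed GAGAACU, and no other of the 724 mature entries of the RefSeq table had it. Counted from the 5′ end, their first 17 bases were identical. Over the 22 bases of rno-miR-146a-5p they differed at 2 positions, G18A and U21C (the base of rno-miR-146a-5p first), and rno-miR-146b-5p was longer, at 24 bases. The seed of rno-miR-155-5p, UAAUGCU, occurred in no other mature entry, and 10 of its first 22 bases matched rno-miR-146a-5p position by position.

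The hairpins that hold these microRNAs are given with both mature arms in capitals, because the array measured both arms of each.
Mir146a: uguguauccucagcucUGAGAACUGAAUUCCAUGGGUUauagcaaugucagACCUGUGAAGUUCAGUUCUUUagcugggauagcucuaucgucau
Mir146b: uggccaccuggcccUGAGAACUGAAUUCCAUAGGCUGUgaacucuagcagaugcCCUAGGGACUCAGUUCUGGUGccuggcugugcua
Mir155: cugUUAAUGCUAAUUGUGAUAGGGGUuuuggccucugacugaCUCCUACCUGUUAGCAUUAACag
On GRCr8, Mir146a lies on the minus strand at chr10:28349996-28350090, Mir146b on the plus strand at chr1:255144860-255144947 and Mir155 on the plus strand at chr11:37261114-37261178. The annotation places Mir155 inside Mir155hg, Mir146a inside the non-coding gene LOC134480673 next to Pttg1, and Mir146b inside the span of C1h10orf95 between Cuedc2 and Mfsd13a. The first capitals of each hairpin are the 5p arm and the second the 3p arm.

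The 5p arms were the ones seen in plasma. Feature Extraction called rno-miR-146a-5p detected on all 6 arrays, rno-miR-155-5p on 2 arterial and 2 venous arrays, and rno-miR-146b-5p on 1 arterial and 1 venous array. None of the other arms, rno-miR-146a-3p, rno-miR-146b-3p and rno-miR-155-3p, was detected on any array, and 0 of the 96 spots of each were well above background. The background-subtracted intensity of these arms lay between -2.47 and 0.246, so no arterial to venous ratio is given for them.

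Brightness differed between arrays. Between 137 and 175 microRNAs were detected on an array, and 126 on all of them, whose median background-subtracted intensity was 17.2 to 52.9. Before normalization the median log2 difference over these 126, arterial minus venous, was 0.63 in rat 1, -0.29 in rat 2 and 0.84 in rat 3, so the arrays were quantile normalized before any comparison. This gives all arrays the same distribution of values. A difference in the total amount of microRNA between the plasma types therefore cannot be read from normalized levels. Both arrays of rats 1 and 2 lay on 1 slide and both of rat 3 on another, and no spot was saturated.

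rno-miR-146a-5p was at nearly the same normalized level in both kinds of plasma. Its background-subtracted intensity before normalization in rats 1, 2 and 3 was 40.5, 69.1 and 56.8 on the arterial arrays and 28.5, 80.6 and 25.9 on the venous arrays. The arterial array was the brighter one for this microRNA in rats 1 and 3 and the dimmer one in rat 2, which is also how the arrays as a whole differed. After quantile normalization the log2 intensity was 5.25, 5.85 and 5.97 in arterial and 5.41, 5.81 and 5.66 in venous plasma, so the groups overlapped and both samples of rat 1 were the lowest of the 6. The arterial mean was 5.69 ± 0.39 (SD, n = 3), and the venous mean was 5.63 ± 0.21 (SD, n = 3). The normalized log2 difference, arterial minus venous, was -0.16, 0.04 and 0.31 in the 3 rats. Its mean was 0.06 with a standard error of 0.130, and the adjusted p was 1 in limma, fitted across all 758 microRNAs with each rat as a block. The 95% interval of the ratio of arterial to venous level ran from 0.730 to 1.49, so changes inside it cannot be told from none with 3 rats.

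**Figure D1:**
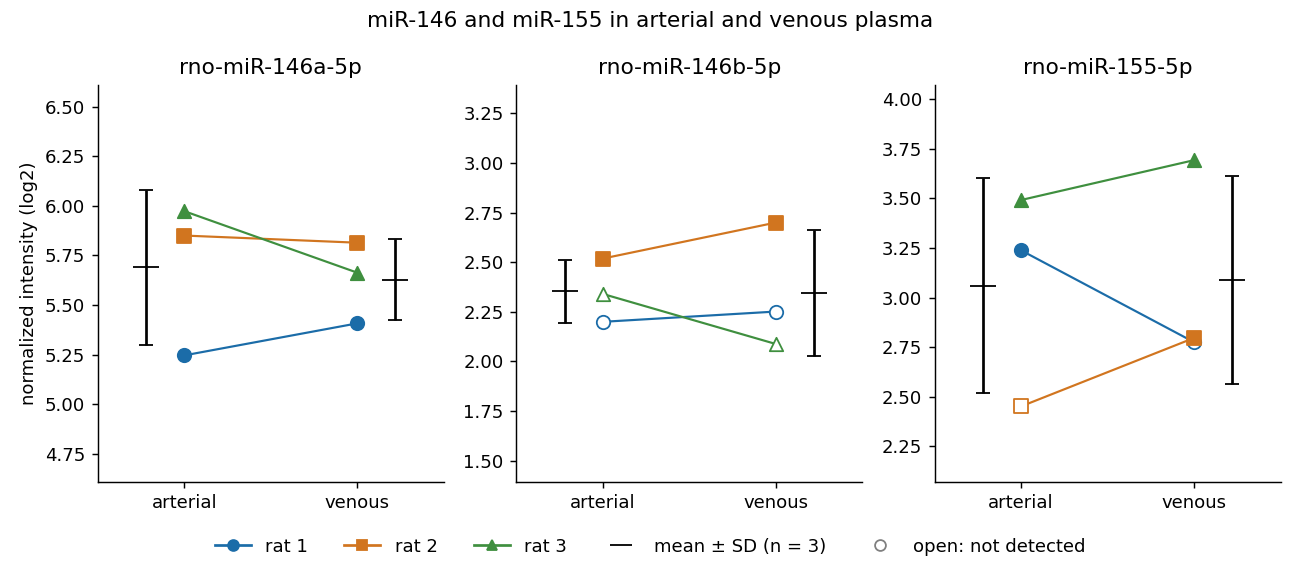
Normalized log2 intensity of the 3 microRNAs in arterial and venous plasma, with a line joining the samples of a rat, open symbols where the microRNA was not detected, and bars for the mean ± SD of 3 rats. The groups overlap for each microRNA, with means of 5.69 and 5.63 for rno-miR-146a-5p, 2.35 and 2.35 for rno-miR-146b-5p, and 3.06 and 3.09 for rno-miR-155-5p, and the axes all span the same number of log2 units.

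rno-miR-146b-5p, the relative with the same seed, was close to background. Its background-subtracted intensity in rats 1, 2 and 3 was 6.02, 6.20 and 4.41 on the arterial arrays and 3.30, 9.48 and 2.63 on the venous arrays. Both arrays of rat 2 passed the detection call, and these were the arrays with the highest median intensity over the microRNAs detected everywhere (41.8 and 52.9). The part of array brightness in the calls of rno-miR-146b-5p was not tested. On its arterial array 0 of 16 spots were well above background, and on its venous array 4 of 16 were. The arterial array of rat 3 had 1 such spot and no call. After normalization the log2 intensity was 2.20, 2.52 and 2.34 in arterial and 2.25, 2.70 and 2.09 in venous plasma, again with overlapping groups and with rat 2 highest in both. The normalized log2 difference was -0.05, -0.18 and 0.25 in rats 1, 2 and 3, with a mean of 0.01, a standard error of 0.123 and an adjusted p of 1 from limma. The 95% interval of the ratio of arterial to venous level was 0.718 to 1.41. As 4 of the 6 values were not called detected, this interval describes intensities near background.

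rno-miR-155-5p varied most of the 3 between rats. Its background-subtracted intensity in rats 1, 2 and 3 was 12.9, 6.06 and 9.25 on the arterial arrays and 4.98, 9.78 and 7.86 on the venous arrays. The arrays with a detection call were the arterial ones of rats 1 and 3 and the venous ones of rats 2 and 3. Within rats 1 and 2, whose arrays differed in the call, the brighter array gave it (medians 35.4 against 21.8 and 52.9 against 41.8). Between rats, the venous array of rat 3, the dimmest of all (median 17.2), gave a call. The arterial array of rat 2 (median 41.8) gave none. The part of array brightness in these calls was not tested. After normalization the log2 intensity was 3.24, 2.45 and 3.49 in arterial and 2.78, 2.80 and 3.69 in venous plasma. Both samples of rat 3 were the highest of the 6, and the groups overlapped. The normalized log2 difference was 0.46, -0.34 and -0.20 in the 3 rats. The mean was -0.03 with a standard error of 0.237 and an adjusted p of 1 from limma. The 95% interval of the ratio of arterial to venous level ran from 0.512 to 1.88, the widest of the 3. Changes inside it cannot be told from none with 3 rats. The width depends on the microRNAs fitted. In the limma fit of those detected on at least 1 array, the log2 interval was -0.67 to 0.62, against -0.97 to 0.91 over all 758.

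None of the 3 microRNAs passed the study's unadjusted p cutoff of 0.025 in limma, against 6 (0.792%) of all 758. At an adjusted p of 0.05 limma called 0 of the 758 (0%), where 12 had an unadjusted p under 0.05 and the methods' t-test called 0 as well. With 3 pairs the exact two-sided permutation test within rats cannot give a p below 0.25, and it gave 0.75 for rno-miR-146a-5p, 1 for rno-miR-146b-5p and 1 for rno-miR-155-5p. None of the 3 moved the same way in all 3 rats, which 18.4% of the 201 microRNAs detected on at least 1 array did. The limma fit over the 126 microRNAs detected on every array gave rno-miR-146a-5p an adjusted p of 0.969 and a log2 interval of -0.41 to 0.54.

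For each of the 3 the rats stood further apart than the plasma types of a rat. The means of the 3 rats spanned 0.51 on the log2 scale for rno-miR-146a-5p, 0.39 for rno-miR-146b-5p and 0.97 for rno-miR-155-5p. The mean absolute difference between the arterial and venous sample of a rat was 0.17, 0.16 and 0.34 in the same order. This order of spreads was common, since the span of the rat means was the larger value for 105 of the 126 microRNAs detected on all arrays (83.3%), whose median span was 0.71 and median difference within a rat 0.32. It is given as a description, without a test of the rats. Both arrays of a rat shared a slide and rat 3 lay on another slide than rats 1 and 2. The span of the rat means thus includes any difference between slides, which the difference within a rat does not.

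**Figure D2:**
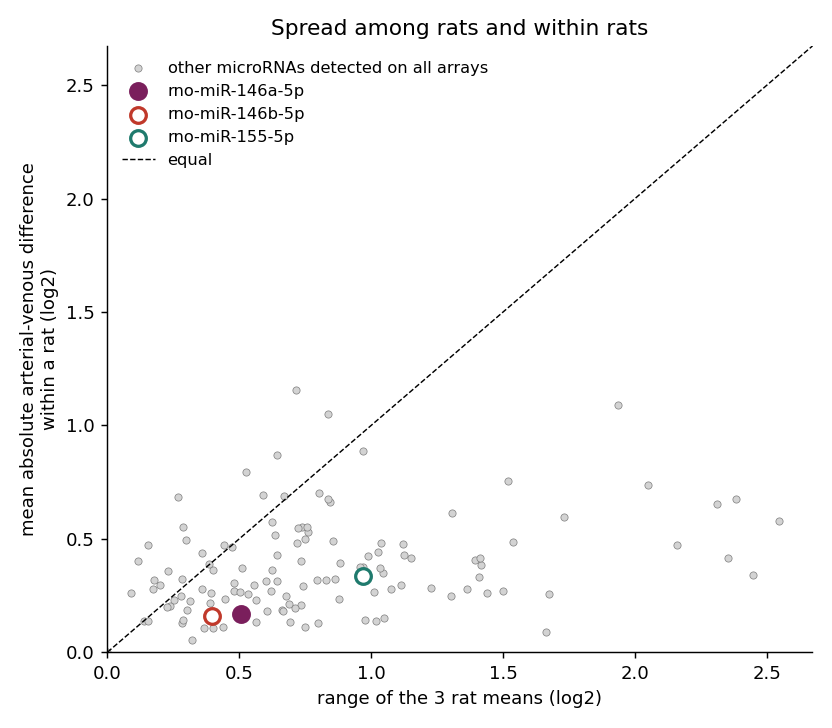
Range of the 3 rat means (horizontal axis) and mean absolute arterial-venous difference within a rat (vertical axis), both in log2 units, for the microRNAs detected on all arrays (grey) and for miR-146a-5p, miR-146b-5p and miR-155-5p (coloured, open where not detected on all arrays). All 3 coloured points lie below the dashed line of equal values, as do most of the grey ones, with rno-miR-155-5p at 0.97 on the horizontal and 0.34 on the vertical axis.

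The probes show how far each value can be read. All 96 spots of rno-miR-146a-5p were well above background, and the coefficient of variation over the spots of a probe was 1.99 to 9.44% on an array. For rno-miR-155-5p 15 of 96 spots were well above background and the coefficient of variation was 10.3 to 41.1%. For rno-miR-146b-5p 5 of 96 spots were, with a coefficient of variation of 11.6 to 116%. Spots flagged as outliers numbered 13, 8 and 5 of 96 for rno-miR-146a-5p, rno-miR-155-5p and rno-miR-146b-5p.

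When each probe was normalized on its own, both probes of rno-miR-146a-5p put venous plasma higher in rat 1 (log2 differences -0.21 and -0.29) and arterial plasma higher in rat 2 (0.02 and 0.17) and rat 3 (0.32 and 0.52). Both probes of rno-miR-155-5p likewise had the same sign within each rat, with 0.62 and 0.51 in rat 1, -0.44 and -0.29 in rat 2, and -0.21 and -0.41 in rat 3. The opposite signs in different rats were thus seen by both probes of these microRNAs. In rat 1 the first of these miR-155 probes had an intensity before normalization of 13.6 ± 3.34 (SD, 8 spots) on the arterial array and 5.04 ± 2.06 (SD, 6 spots) on the venous array. The arterial array of this rat was also the brighter one as a whole, by the log2 shift of 0.63 given above, and 0 of the 16 spots of rno-miR-155-5p on the venous array were well above background. The probes of rno-miR-146b-5p disagreed in rat 1 (0.28 and -0.03) and shared their sign in rats 2 and 3.

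**Figure D3:**
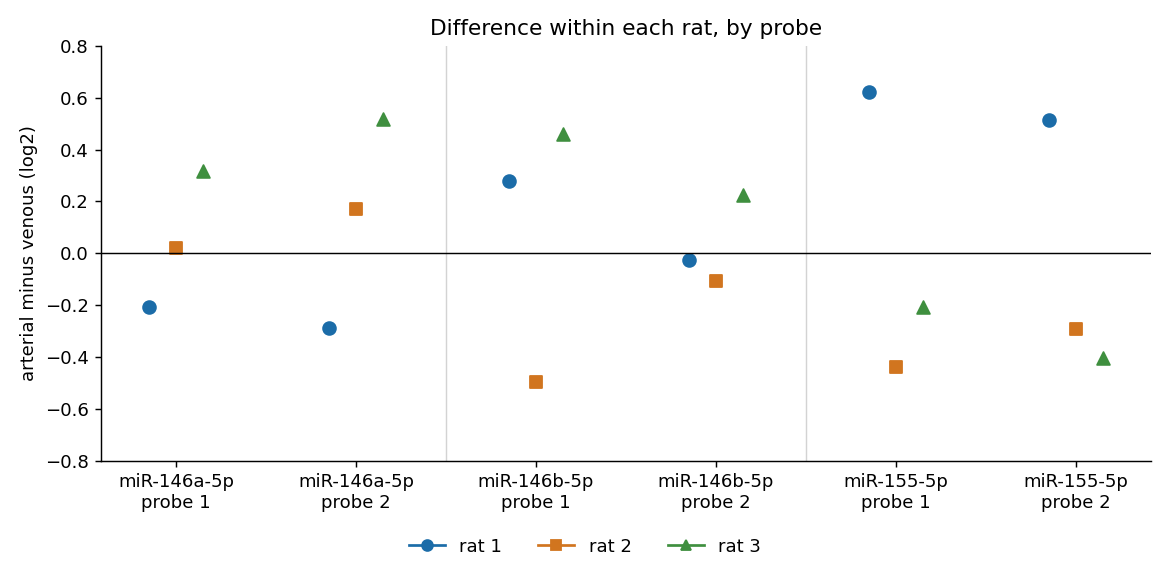
Arterial minus venous log2 difference in each rat for both probes of the 3 microRNAs, each probe normalized with all probes of the array. Both probes of rno-miR-146a-5p and of rno-miR-155-5p give the same sign within each rat, and the sign differs between rats (rno-miR-155-5p 0.62 and 0.51 in rat 1, -0.44 and -0.29 in rat 2).

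The differences of rno-miR-155-5p before normalization are given beside the shift of its arrays. Its log2 difference was 1.37 in rat 1, where the median difference of the microRNAs detected on all arrays was 0.63. It was -0.69 in rat 2 against a median of -0.29, and 0.24 in rat 3 against a median of 0.84. The venous value of rat 1 (4.98) and the arterial value of rat 2 (6.06) were not called detected, with 0 of 16 spots well above background on each array, so the differences of these rats are taken against values near background. The difference of rno-miR-146a-5p, detected on every array, was 0.51, -0.22 and 1.13 in rats 1, 2 and 3.

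Likeness of profiles over the 6 arrays was measured as the root mean square difference of the normalized log2 values after each microRNA was centred on its own mean over the 6 arrays. This difference was 0.226 between rno-miR-146a-5p and rno-miR-146b-5p, 0.512 between rno-miR-146a-5p and rno-miR-155-5p, and 0.594 between rno-miR-146b-5p and rno-miR-155-5p. This measure grows with a microRNA's own spread. A flat profile would lie at 0.256 from rno-miR-146a-5p, 0.205 from rno-miR-146b-5p and 0.436 from rno-miR-155-5p, and rno-miR-146b-5p was not detected on 4 of the 6 arrays, so no order of likeness among the 3 is read from these values. These profiles share the arrays and rats, and the sequences of the probes were not used here, so the part of cross-hybridization between the miR-146 relatives was not tested. Among the 125 other microRNAs detected on all arrays, those with profiles nearest to rno-miR-146a-5p were rno-miR-140-3p (0.0878), rno-miR-27a-3p (0.0968) and rno-miR-107-3p (0.102), against a median of 0.405.

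A list of 16 other microRNAs linked to inflammatory signalling was set beside these 3. All 16 were on the array, 7 were detected on every array and 5 on none. The undetected ones were rno-miR-132-3p, rno-miR-147, rno-miR-9a-5p, rno-miR-187-3p and rno-miR-31a-5p, several of which are induced in stimulated macrophages. At the unadjusted cutoff of 0.025 in limma 1 of the 16 was higher in arterial plasma, against 0.528% of all 758 in this direction, and 0 were higher in venous plasma, against 0.264%. The one called was rno-miR-125a-5p, which targets Tnfaip3, a brake on NF-kappaB, with a log2 difference of 0.55, a standard error of 0.0965 and an adjusted p of 1 from limma. It was higher in the arterial plasma of 3 of 3 rats but detected on 4 of the 6 arrays, so part of its values lie near background.

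Over the 7 listed microRNAs detected on every array the log2 differences ran from 0.01 to 0.55 with a median of 0.16, where the median over all 126 detected on every array was 0.00 (-0.00405 before rounding). Among the 7, rno-miR-125b-5p and rno-miR-126a-3p were reported as higher in arterial plasma by the paper from these same arrays. The median of the 7 is therefore no independent evidence of that direction. The median of the 7 was -0.14 in rat 1, 0.07 in rat 2 and 0.36 in rat 3, so its sign in rat 1 was opposite to that in the other rats. The median over all 126 was -0.13, 0 and 0.02 in rats 1, 2 and 3, so the 7 were near all 126 in rat 1. Of the listed microRNAs detected on 5 arrays, rno-miR-181a-5p had a mean difference of -0.26 and rno-miR-181b-5p, of the same family, 0.09. rno-miR-21-5p, which is abundant in activated immune cells and represses Pdcd4, had a difference of 0.01 (-0.40, 0.07 and 0.36 in rats 1, 2 and 3). rno-miR-223-3p, the granulocyte microRNA, had 0.03, from -0.60, 0 and 0.69 in rats 1, 2 and 3. rno-miR-212-3p, which Creb signalling induces, had 0.07, from 0.33, 0.80 and -0.93, so opposite values in the rats lie behind both means. rno-let-7i-5p, which represses Tlr4, had 0.16, with a value below 0 in rats 1 and 2 (-0.20 and -0.04) and of 0.71 in rat 3. rno-miR-126a-3p, which restrains Vcam1 in endothelium, had 0.21, and rno-miR-125b-5p, a relative of miR-125a, had 0.21. rno-miR-10a-5p, known for damping NF-kappaB in endothelium, had 0.55 with a standard error of 0.244 and an adjusted p of 1 from limma. It was likewise above 0 in every rat (0.14, 1.02 and 0.48).
The signs of rno-miR-146a-5p, negative in rat 1 and positive in rats 2 and 3, were those of rno-miR-21-5p and rno-miR-126a-3p. The other listed microRNAs detected on every array did not have them, and rno-miR-155-5p had the opposite signs. Off this list, the liver microRNAs rno-miR-122-5p and rno-miR-192-5p had them too, so they are not particular to inflammation-linked microRNAs. In rat 2 rno-miR-146a-5p (0.04) and rno-miR-21-5p (0.07) were near 0.

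**Figure D4:**
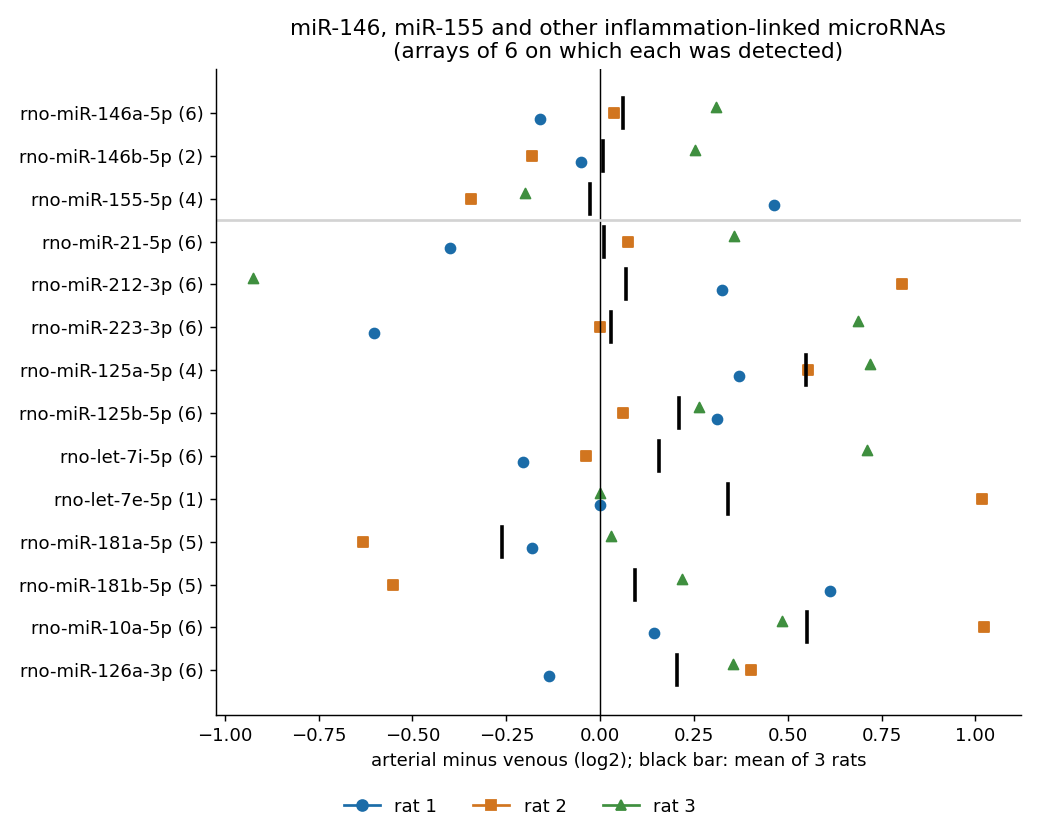
Arterial minus venous log2 difference in each rat (symbols) and its mean (black bar) for miR-146a-5p, miR-146b-5p and miR-155-5p, above the grey line, and for the listed inflammation-linked microRNAs detected on at least 1 array, with the number of arrays of detection in brackets. The means of the first 3 lie at 0.06, 0.01 and -0.03, and rno-miR-125a-5p and rno-miR-10a-5p are furthest to the right, both at 0.55.

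Markers of blood cells, from which RNA may reach plasma, were set beside these values. Both lymphocyte markers, rno-miR-150-5p and rno-miR-342-3p, were detected on all arrays and had lower values in the arterial plasma of every rat, with mean log2 differences of -0.40 and -0.41. Their summed linear level was 274 to 458 in arterial and 364 to 676 in venous plasma. Only rno-miR-342-3p of these passed the unadjusted cutoff (adjusted p of 1 from limma). rno-miR-155-5p, which activated lymphocytes express, had this sign in rats 2 and 3 and the opposite one in rat 1.
All 3 myeloid cell and platelet markers were detected on all arrays, with a summed level of 233 to 576 in arterial and 349 to 361 in venous plasma and a median log2 difference of -0.49, -0.40 and 0.69 in rats 1, 2 and 3. The venous range is narrow because rno-miR-223-3p, the brightest of the list, took the same rank value on all 3 venous arrays in quantile normalization (SD 0). rno-miR-146a-5p had the same sign as this median in rats 1 and 3, and as the erythrocyte median given below in the same rats. In all 3 rats it had the sign of the endothelial marker rno-miR-126a-3p (-0.14, 0.40 and 0.35). The same held for the median of the liver markers rno-miR-122-5p and rno-miR-192-5p (-0.46, 0.82 and 0.26). No cell type is read from these signs. Of the 6 erythrocyte markers 4 were detected on all arrays and rno-miR-144-5p and rno-miR-363-3p on none, with a summed level of 2039 to 2262 in arterial and 1699 to 2387 in venous plasma, and rno-miR-451-5p likewise took 1 rank value on all arterial arrays (SD 0). Their median log2 difference was -0.23, -0.54 and 0.51 in rats 1, 2 and 3. In plasma, RNA from more cells and more RNA from each cell cannot be told apart. The part of blood cell RNA in the values of miR-146 and miR-155 was not tested.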

How the data were processed

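Plasma RNA labelled with Cy3 was hybridized by the authors to Agilent rat miRNA arrays. The deposited spot intensities were written by Feature Extraction, version 10.7.3.1 per the file headers and 11.0.1.1 per the labels, with local background subtracted and no normalization between arrays. The authors also deposited a table of quantile-normalized linear intensities without background subtraction (column medians 38.5 to 42.33), used here only as an alternative. Its order of probes equals that of the raw median signal of 1 spot, the first listed, of each probe (Spearman 1).

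For the values given, control spots and spots flagged as outliers were left out. Processed intensities were averaged within each probe and then over the probes of each microRNA, quantile normalized over 758 microRNAs, set to at least 1 and logged (log2). The two-sided test was limma (version 3.58.1, R 4.3.3) with the rat as a block, since both samples of a number come from 1 rat. Calls used the unadjusted cutoff of 0.025 and a Benjamini-Hochberg adjusted p of 0.05. As many microRNAs lay at the floor, limma's prior carried 0.198 degrees of freedom (3.22 over those detected on all arrays). Figures used matplotlib 3.10.9. Precision is limited by the number of arrays.

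The microRNAs and lists were chosen with earlier results of these data known. Named were the 3 microRNAs, their other arms, the list, the markers and the 3 nearest profiles. RefSeq sequences matched all 6 arms. Only limma and the methods' t-test were tried on simulated log2 values, with planted changes larger than the mean differences of the 3 microRNAs. Spot flagging, averaging, normalization and the floor were not tried in this way. Alternatives changed the scaling, intensity, probe summary, floor, filter, test, block and rats.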

Additional observations from a re-analysis of the deposited data

How the results depend on the processing

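The log2 difference of rno-miR-146a-5p was 0.06 and ranged from -0.14 to 0.47 over 17 alternatives, that of rno-miR-146b-5p was 0.01 (-0.12 to 0.33 over 16) and that of rno-miR-155-5p was -0.03 (-0.27 to 0.42 over 16). No alternative brought any of them past the cutoff of 0.025, and the smallest adjusted p-values from limma or the methods' t-test were 0.741, 0.466 and 0.931. Signs turned in several, as differences near 0 can. rno-miR-146a-5p was at -0.14 with the median over all spots (those not flagged), which mixes the spots of 2 probes of unlike brightness. The probes did not always keep equal numbers of spots, with 5 and 8 on the venous array of rat 1. The part of these spot numbers in the turned sign was not tested. rno-miR-146b-5p was at -0.0926 with the 75th percentile of the microRNAs detected on all arrays, at -0.0899 with that of all microRNAs, at -0.00495 with normexp and at -0.0236 with flagged spots kept. rno-miR-155-5p was at 0.31 without normalization between arrays, where the median of the microRNAs detected on all arrays was itself 0.40, and at 0.42 with the total gene signal, which sets undetected microRNAs to 0.1. With 1 rat left out, rno-miR-146a-5p ranged from -0.0627 to 0.17, rno-miR-146b-5p from -0.12 to 0.10 and rno-miR-155-5p from -0.27 to 0.13. Rat 3 alone lies on the second slide, and the values within the slide of rats 1 and 2 were -0.06, -0.12 and 0.06. Without rat 2 rno-miR-155-5p was at 0.13.

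Without the rat as a replicate block the differences were 0.06, 0.01 and -0.03 by construction, with 5 calls at the cutoff in place of 6. The number of microRNAs past the cutoff was 12 in the authors' table, 13 with normexp, 3 with the total gene signal, 10 with the median over all spots, 13 with a floor of 0.1, 3 in the fit of the microRNAs detected on all arrays, and 17 to 33 with 1 rat left out (33 without rat 1, 19 without rat 2, 17 without rat 3). The cause was not tested. The share of calls higher in arterial plasma was 66.7%, and 44.4%, 50% and 80% with the 75th percentile of the microRNAs detected on all arrays, that of all microRNAs and no normalization. At an adjusted p of 0.05 limma called 1, rno-miR-883-5p (chosen after its values were seen), in the fit of the 201 microRNAs detected on 1 or more arrays, and 0 under the other alternatives. rno-miR-146b-5p and rno-miR-155-5p could not be fitted among microRNAs detected on all arrays. Signal near background limits what can be read for both.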
